A study of Mus musculus with 20 samples.

Results

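Room-air lungs of mice labelled VIPKO were compared directly with lungs of wild-type (WT) mice kept in low oxygen, so that loss of vasoactive intestinal peptide (VIP) stood against chronic hypoxia, each without the other. The members were 9 of the series' 20 whole-lung libraries, chosen by their labels alone: 4 VIPKO normoxia libraries (21% oxygen) and 5 WT hypoxia libraries (10% oxygen), each after 4 weeks. The design text gives C57BL/6 for the WT mice. It and the sample titles speak of a knockout, whereas the genotype field reads VIP Knockdown. Ages, sexes and whether each library is a separate animal are not given, so p-values measure the spread between libraries, which may be technical. In the tests of single genes that spread was pooled over all 20 libraries in their 4 groups, VIPKO hypoxia included. All 9 carry the label Batch 1. The groups share no library. Genotype and oxygen both differ in the contrast, and within it their contributions cannot be told apart. The 6 WT normoxia libraries are given as the control level, and 2 further contrasts against them share those controls.

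VIP is a neuropeptide that relaxes vascular and airway smooth muscle through receptors that raise cyclic AMP, and mice without it are studied as a model of pulmonary hypertension. Chronic hypoxia is the classic inducer of pulmonary hypertension in rodents: it constricts and remodels small pulmonary arteries and, in every cell, stabilises hypoxia-inducible factor (HIF), which turns on genes for glucose uptake, glycolysis and growth restraint. In the lung endothelium, bone morphogenetic protein (BMP) signals through the receptors BMPR2 and ALK1 with endoglin, and inhibitory SMADs and ID proteins are among its targets.

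Vip, the targeted gene, read 5.32, 5.54, 4.27 and 1.16 in VIPKO normoxia 1 to 4, against 2.37, 6.77, 1.38, 0 and 3.43 in WT hypoxia 1 to 5. The WT normoxia libraries had a lowest, median and highest signal of 0, 3.64 and 93. The 9 values overlapped and lay near the detection limit, Vip did not pass the filter for testing, and the signal therefore checks neither genotype label. Of the other genes of the system, the VIP receptor genes Vipr1 and Vipr2 had differences of -0.32 ± 0.22 and -0.19 ± 0.23 (VIPKO normoxia minus WT hypoxia, log2 ± SE), with limma adjusted p of 0.362 and 0.605. Their 95% intervals, -0.78 to 0.15 and -0.68 to 0.29, still allow lower or higher levels in the VIPKO libraries.

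Several libraries stood apart. Estimated depth was 4.96 to 25.55 M reads in WT hypoxia, lowest in library 4, and 17.07 to 21.07 M in VIPKO normoxia. On the first principal component of the 9, which held 31.6% of the variance, VIPKO normoxia 2 and 3 lay at -77.1 and -80.1, VIPKO normoxia 4 and 1 at -39.8 and -10.9, and the WT hypoxia libraries between 24.1 and 54. WT hypoxia 4 lay alone on the second component, at -101.2. The summed signal of the 2 mitochondrial ribosomal RNAs was 12034 to 27208 in VIPKO normoxia, 396.5 to 7058 in WT hypoxia and 97.7 to 2075 in WT normoxia. WT hypoxia 5 had summed signals of 38820 for 12 skeletal muscle genes, 90059 for 10 basal and squamous epithelial genes and 28459 for 11 adipocyte genes. VIPKO normoxia 2 had 86371 for 13 alveolar macrophage genes, against 10656 to 18649 in the other VIPKO normoxia libraries and 12599 to 25825 in WT hypoxia. Xist was high, 23201 to 37156, in WT hypoxia 3, 4 and 5 and in VIPKO normoxia 3, and 111 to 192 in the other 5 libraries. The type 2 alveolar genes, defining markers of lung, summed to 286920 or more in each of the 9.

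**Figure D1:**
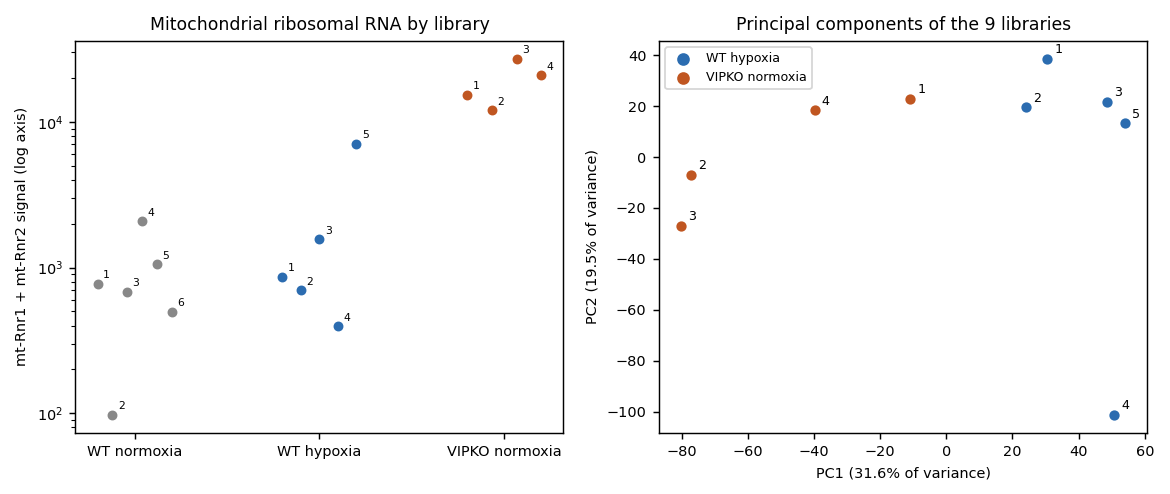
Left, summed signal of mt-Rnr1 and mt-Rnr2 (log axis) for each library of WT normoxia, WT hypoxia and VIPKO normoxia, numbered by replicate. Right, the first and second principal components of log2(signal + 1) of the 9 libraries compared. The VIPKO normoxia libraries lie above every other library on the left (12034 to 27208), and VIPKO normoxia 2 and 3 lie at the far end of the first component on the right.

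With limma on log2(signal + 1) over 21658 genes, 2552 (11.8%) differed at a Benjamini-Hochberg adjusted p under 0.05. Of these, 1150 (5.31%) were higher and 1402 (6.47%) lower in VIPKO normoxia than in WT hypoxia. Past a 2-fold difference the balance turned: of 691 such genes (3.19%), 591 (2.73%) were higher and 100 (0.462%) lower. Over all tested genes the median difference was 0.03 and 52.77% of differences were positive. The 2 groups did not overlap for 3174 genes (14.7%). The differences followed base composition across genes (Spearman rank correlation -0.453 with GC content, -0.159 with transcript length, a description over genes, which are not independent).

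These counts rested on particular libraries. Without VIPKO normoxia 3 the calls were 252 higher and 313 lower, and without VIPKO normoxia 2 they were 345 and 522. With both left out, only VIPKO normoxia 1 and 4 stood against WT hypoxia. Limma then called 0 genes (lowest adjusted p 0.104), with 3121 at an unadjusted p under 0.05. All 2552 genes kept their sign, but they were chosen with all libraries in, and the remaining libraries are the same ones. The kept signs are therefore no independent support. No other pair of libraries was left out. After correction of each library for transcript length and GC content, 568 were called (2.71%), 230 higher (1.1%) and 338 lower (1.61%), of which 416 were among the 2552, and 2389 of the 2471 called genes with a length and GC value kept their sign. With mitochondrial ribosomal RNA as a covariate 278 were called (1.28%), 63 higher (0.291%) and 215 lower (0.993%), and 188 of the 2552 were among them. This covariate did not itself overlap between the groups (12034 to 27208 in VIPKO normoxia, 396.5 to 7058 in WT hypoxia). The fit therefore cannot separate it well from the group difference, and a call lost with it does not show that a difference is absent. Without VIPKO normoxia 2 and 3 together, therefore, no member of any gene group described here passes.

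**Figure D2:**
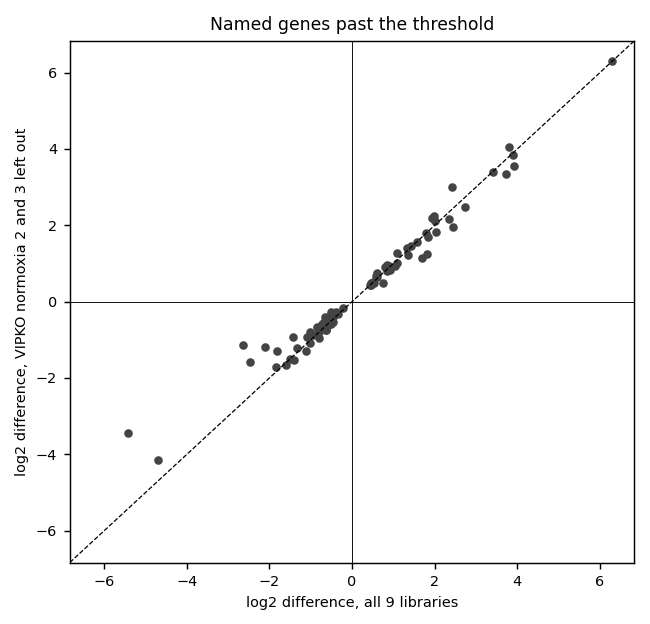
Each point is a named gene past the threshold: its log2 difference (VIPKO normoxia minus WT hypoxia) over all 9 libraries on the x axis against the same with VIPKO normoxia 2 and 3 left out on the y axis, with the line of equal values. No point changed sign, although none passes the threshold without those 2 libraries. The genes were chosen by the x axis fit and both axes share the remaining libraries, so kept signs are no independent support.

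Lists of pathway genes and cell markers gave the members to describe. Of 554 distinct genes tested on 48 lists, 82 were called, 40 of them higher and 42 lower. That is 14.8%, beside the 11.8% of all genes (5.31% higher, 6.47% lower), which is also the level to set beside each list below. Apart from the 2 mitochondrial ribosomal RNAs and lists with under 5 tested genes, the groups with the largest shares of calls were lymphatic and capillary endothelium, cell cycle, natural killer cells, B cells, type 2 alveolar cells and glycolysis. In whole lung, fewer cells of a type and less RNA per cell cannot be told apart. The sums of list signals were also compared by 2-sided exact permutation tests, in which 4 against 5 libraries allow no p below 0.00794. None of the 49 sums passed after adjustment (lowest adjusted p 0.0972), and 15 were at an unadjusted p under 0.05.

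**Figure D3:**
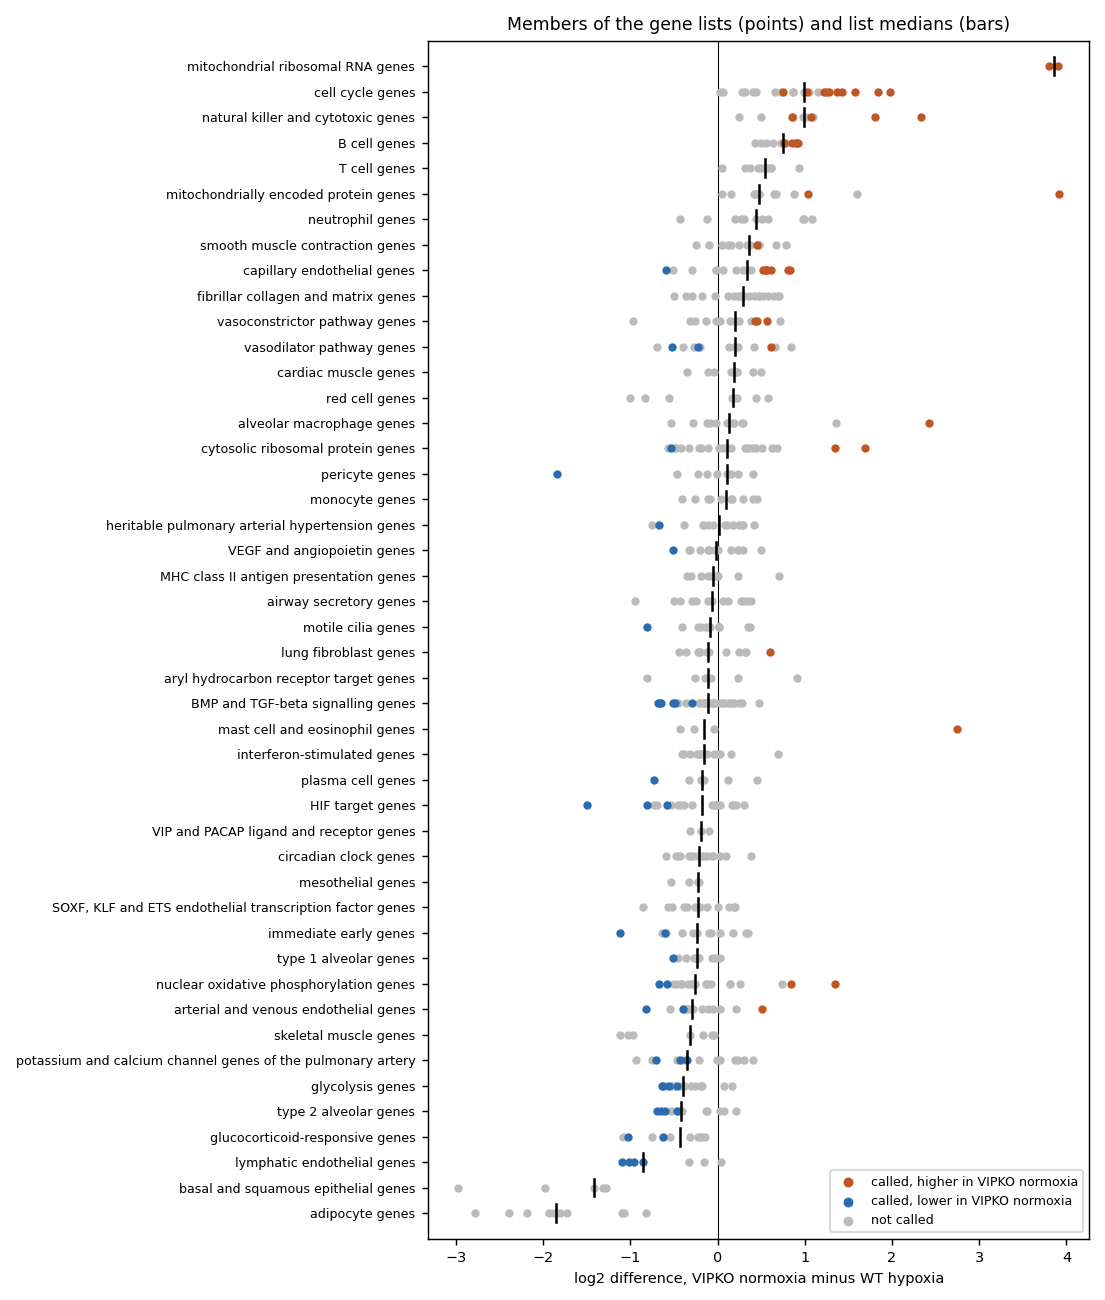
Log2 difference (VIPKO normoxia minus WT hypoxia) of every tested member of each gene list, with members called higher in orange, called lower in blue and not called in grey, and a black bar at the list median. Lists are ordered by median, from the mitochondrial ribosomal RNAs (median 3.86) down to the adipocyte genes (median -1.85, no member called).

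HIF target genes were lower in VIPKO normoxia than in WT hypoxia in 3 of 20 members, and none was higher. That is 15% called, beside 11.8% of all genes (6.47% lower), and nothing is read from the count. The list median was -0.18. The 3 were Ddit4, whose product restrains mTORC1 in hypoxia, Slc2a1, the glucose transporter GLUT1, and Ndrg1, a stress-response gene. HIF binds the core letters ACGTG. These letters, on either strand (CACGT on the other, which overlaps the E-box CACGTG), stand within 250 bases before the start in 16.6% of 32851 RefSeq promoter windows (build GRCm38.p6) and in 23.5% of the 13138 tested genes with a window. Among HIF genes with a window, 13 of 17 hold them (76.5%). The stretches before Ddit4 (chr10:59951835-59952020, minus strand) and Slc2a1 (chr4:119108495-119108713, plus strand) are shown because these are 2 of the 3 HIF genes called, and capitals mark the ACGTG match, 1 in each. The Slc2a1 match ends its stretch and runs across the GENCODE start of the gene (119108711), so it lies only partly before that start.
Ddit4: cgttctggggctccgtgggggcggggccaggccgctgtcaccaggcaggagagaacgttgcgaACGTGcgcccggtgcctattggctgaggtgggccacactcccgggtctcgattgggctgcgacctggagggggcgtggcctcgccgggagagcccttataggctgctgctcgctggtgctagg
Slc2a1: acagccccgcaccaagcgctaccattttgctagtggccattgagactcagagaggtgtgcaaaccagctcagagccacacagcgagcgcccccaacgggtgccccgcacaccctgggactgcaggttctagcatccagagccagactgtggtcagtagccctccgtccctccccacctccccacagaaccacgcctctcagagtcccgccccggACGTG
A match is a description of the letters and was not tested as a binding site.

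The Ddit4 signal (chromosome 10, 59949669 to 59951834, minus strand, GRCm38) was 392, 380.1, 331 and 325 in VIPKO normoxia 1 to 4 and 944, 1345, 758, 1108 and 979 in WT hypoxia 1 to 5. WT normoxia libraries had a lowest, median and highest value of 238, 372 and 724. Every VIPKO value lay below every WT hypoxia value and inside the control range. The difference was -1.50 ± 0.29 (adjusted p = 0.00613). Against the shared WT normoxia controls, VIPKO normoxia differed by -0.14 ± 0.28 (adjusted p = 0.801) and WT hypoxia by 1.36 ± 0.26 (adjusted p = 0.00456).

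Slc2a1 (chromosome 4, 119108711 to 119137983, plus strand) read 350.2, 444, 430.1 and 376 in VIPKO normoxia and 716, 601, 682, 832 and 681 in WT hypoxia. The controls ran from 456 to 543. The groups did not overlap: the VIPKO libraries all lay below the lowest control and the hypoxic ones above the highest. The difference was -0.81 ± 0.14 (adjusted p = 0.00386). For Ndrg1 the values were 789, 716, 566 and 810.3 against 824, 1196, 1090.2, 1026 and 1242, a difference of -0.58 ± 0.13 (adjusted p = 0.0131). Its groups were separate, with the highest VIPKO library, 810.3, just under the lowest hypoxic one. The Ndrg1 call was lost without VIPKO normoxia 3 (adjusted p = 0.0639), while Ddit4 and Slc2a1 kept theirs without any 1 library. All 3 passed after the length and GC correction, and none with the mitochondrial covariate (adjusted p 0.0543 to 0.0738), where the differences were -1.62, -0.81 and -0.80. The other 17 members were not called. Among them Vegfa, the endothelial growth factor, had a difference of -0.03 and Bnip3l, a mitophagy receptor, 0.00.

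Glycolysis genes were lower in VIPKO normoxia in 4 of 16 members (25%, beside 6.47% lower over all genes), with none higher and a list median of -0.40. These were Pfkl (phosphofructokinase, -0.56 ± 0.16, adjusted p = 0.029), Slc16a3 (the lactate exporter MCT4, -0.63 ± 0.19, adjusted p = 0.0361), Aldoa (aldolase A) and Tpi1 (triose phosphate isomerase, -0.47 ± 0.15, adjusted p = 0.04999). The Aldoa signal was 5762, 6576, 5285 and 6657 in VIPKO normoxia and 8887, 7522, 7698, 7319.7 and 18654 in WT hypoxia. WT hypoxia 5 stood far above the rest, and the groups did not overlap. Its difference was -0.62 ± 0.20 (adjusted p = 0.0462). Skeletal muscle, which is rich in Aldoa, summed to 38.1 to 38820 in WT hypoxia and 76.4 to 443 in VIPKO normoxia over its 12 genes, 7 of which passed the filter, and its part in the result was not tested. Pfkl lost its call without WT hypoxia 5 or VIPKO normoxia 2 or 3 (adjusted p 0.0625 to 0.100), Slc16a3 without any library but WT hypoxia 2 (0.0522 to 0.100), and Aldoa and Tpi1 without any but WT hypoxia 2 or 4 (0.051 to 0.176). With the Xist class as a covariate 1 of the 4, Pfkl, was called (adjusted p = 0.042), and after the length and GC correction 0 of 16 were called (8 at an unadjusted p under 0.05 before it). With the mitochondrial covariate 4 of 16 were lower (list median -0.85). They included Pfkl, Aldoa and Tpi1 (adjusted p = 0.0323, 0.0348 and 0.0431) but not Slc16a3 (0.282).

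**Figure D4:**
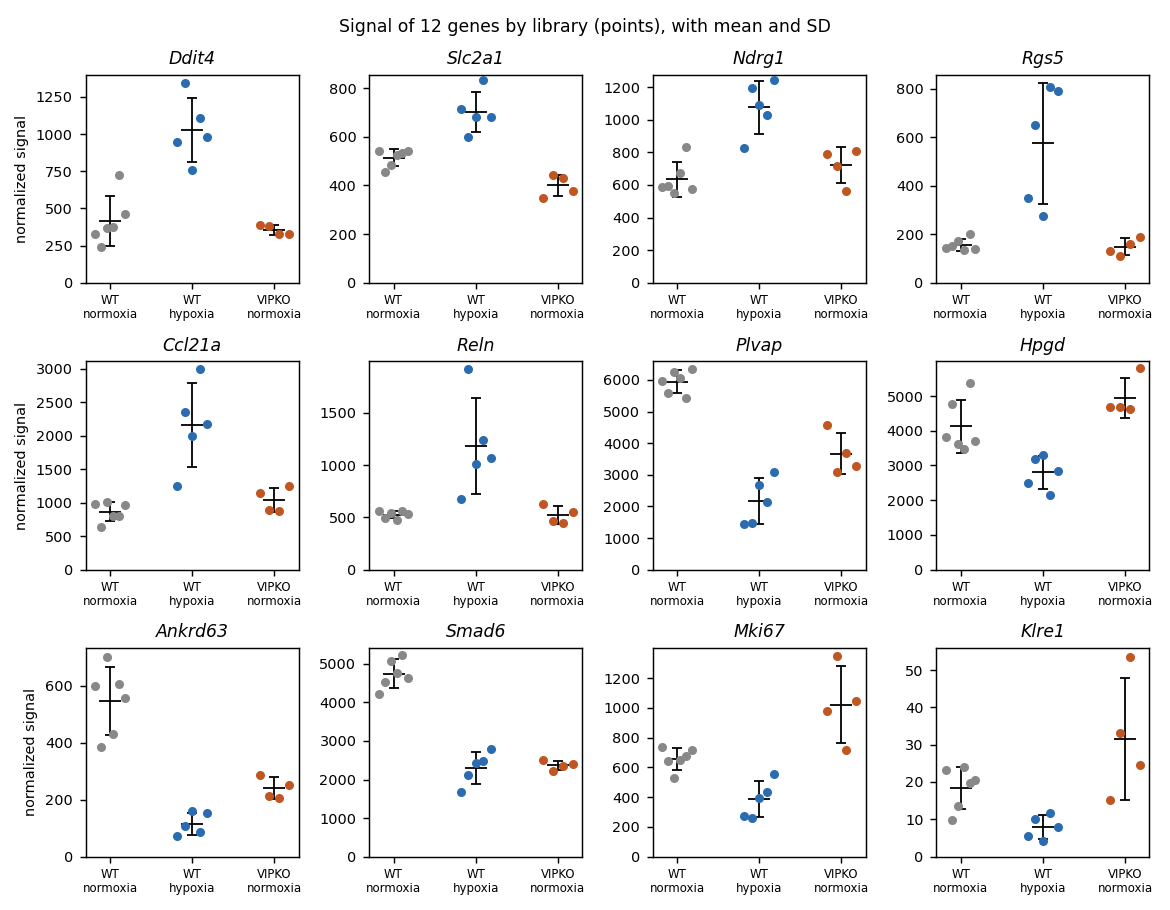
Normalized signal of 12 genes in each WT normoxia (grey), WT hypoxia (blue) and VIPKO normoxia (orange) library, with the mean and SD of each group, on axes that start at 0. Ddit4, Rgs5, Ccl21a and Reln are highest in WT hypoxia, Mki67 is highest in VIPKO normoxia, and Smad6 is at a like level in WT hypoxia and VIPKO normoxia, below the controls.

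In the vessel wall, Rgs5, a G-protein regulator that marks pericytes, was lower in VIPKO normoxia by 1.84 on the log2 scale, and lymphatic endothelial genes were lower in 4 of 7 members (57.1%), with a median of -0.86. Rgs5 (chromosome 1, 169655501 to 169695813, plus strand) read 133, 112, 161 and 189.8 in VIPKO normoxia and 349.9, 649.7, 277, 809 and 790.4 in WT hypoxia, with controls of 135, 147 and 199.8 (lowest, median, highest). The VIPKO values lay around the controls, whereas all hypoxic values lay above them, WT hypoxia 1 and 3 the least. The groups did not overlap, and the difference was -1.84 ± 0.35 (adjusted p = 0.0053). It was the only one of 11 pericyte genes called: Pdgfrb, the pericyte growth factor receptor, differed by 0.11 and Higd1b by 0.12, and the pericyte list median was 0.11. The pericyte sum ran from 13820 to 19469 in VIPKO normoxia and from 9719 to 27905 in WT hypoxia.

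Among the lymphatic genes, Ccl21a encodes the chemokine that draws dendritic cells and lymphocytes into lymph vessels. Ccl21a read 1148, 897, 873 and 1244 in VIPKO normoxia and 1249, 2358, 2001, 2990.0 and 2180.3 in WT hypoxia (638, 883 and 1004 in controls). VIPKO normoxia 4 and WT hypoxia 1 nearly touched, and the other libraries were well apart. The difference was -1.01 ± 0.20 (adjusted p = 0.00638). Near-identical Ccl21 copies can share reads, so its level is uncertain. Reln, a secreted glycoprotein of lymphatic endothelium, read 631, 469, 447 and 555 against 680.0, 1917, 1006, 1244 and 1069, a difference of -1.10 ± 0.22 (adjusted p = 0.00653). Again WT hypoxia 1 was nearest to the VIPKO libraries, without overlap. Prox1, the lymphatic master regulator (-0.95 ± 0.25, adjusted p = 0.0204), and Mmrn1 (-0.86 ± 0.23, adjusted p = 0.0221) were also lower, but lost their calls without VIPKO normoxia 2 or 3 (adjusted p 0.0595 to 0.0885). Lyve1, a lymphatic hyaluronan receptor, differed by 0.03 and Flt4, the VEGF-C receptor, by -0.33, neither called. After the length and GC correction 5 of 7 were lower, and with the mitochondrial covariate 0 were called.

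Of 16 arterial and venous endothelial genes, 1 was higher and 2 lower (18.8%, beside 11.8% of all genes). The chemokine Cxcl12 read 6910.5, 6581, 4736 and 6154 in VIPKO normoxia and 8474, 8341, 10694, 15770.0 and 11396 in WT hypoxia. All 5 hypoxic libraries exceeded all 4 VIPKO libraries, with WT hypoxia 4 the highest. The difference was -0.82 ± 0.18 (adjusted p = 0.00966) and was kept without any 1 library. The venous adhesion gene Vcam1 was higher (0.51 ± 0.15, adjusted p = 0.0335) and the venous receptor Ephb4 lower (-0.40 ± 0.12, adjusted p = 0.0395). The arterial ligand Efnb2 had -0.33 ± 0.14 (adjusted p = 0.12), with means of 4008 in VIPKO normoxia, 5105 in WT hypoxia and a control median of 6354. Vcam1 lost its call without any library but WT hypoxia 3, 4 or 5 (adjusted p 0.0528 to 0.114), and Ephb4 without any but WT hypoxia 1 or VIPKO normoxia 1 (0.0575 to 0.149). After the length and GC correction neither was called (Vcam1 0.19, Ephb4 -0.07, adjusted p 0.595 and 0.767) while Cxcl12 was (-0.71), and with the mitochondrial covariate 0 of 16 were.

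Of 16 capillary endothelial genes, 7 were higher in VIPKO normoxia and 1 was lower (50% called), with a median of 0.34. The higher ones were Plvap, Ednrb, Fibin, Car4, Kitl, Hpgd and Calcrl, and Gpihbp1, which anchors lipoprotein lipase, was lower (-0.60 ± 0.13, adjusted p = 0.0118). Hpgd, the enzyme that degrades prostaglandins, read 4676, 4679.8, 4622 and 5814 in VIPKO normoxia and 2489.5, 3198, 3305, 2157 and 2849.9 in WT hypoxia. The controls had 3483, 3771 and 5371, so the VIPKO libraries lay within or above the control range and the hypoxic ones below it. The Hpgd difference was 0.83 ± 0.14 (adjusted p = 0.00378), and 0.43 after the length and GC correction (adjusted p = 0.103).

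Plvap, which forms the diaphragms of endothelial fenestrae and caveolae, read 4565, 3101, 3703 and 3284 in VIPKO normoxia and 1449, 1486, 2678, 2134 and 3094 in WT hypoxia. The controls had 5443, 6010.1 and 6339.6. Both groups lay below every control library, and the hypoxic group lay lower, with WT hypoxia 5 just under the lowest VIPKO library. The difference was 0.81 ± 0.19 (adjusted p = 0.0149) and was lost without VIPKO normoxia 3 (adjusted p = 0.0529). Car4, a carbonic anhydrase of alveolar capillaries, had 0.54 ± 0.14 (adjusted p = 0.0176, and 0.071 without VIPKO normoxia 2). Kdr, the main VEGF receptor, was not called (0.29 ± 0.13, adjusted p = 0.147). The summed capillary signal was 69067 to 83927 in VIPKO normoxia, 47629 to 68637 in WT hypoxia and 78808 to 89983 in WT normoxia (exact permutation p = 0.0159, adjusted p = 0.111). After the length and GC correction 1 of the 16, Plvap, was called (1.08), and with the mitochondrial covariate 0 were, with Plvap at 0.45 (adjusted p = 0.385).

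A further gene outside the lists shows the same order. Ankrd63, an ankyrin-repeat gene, read 288, 213, 205 and 253 in VIPKO normoxia, 73.6, 107, 160.5, 85.5 and 152 in WT hypoxia and 384, 578 and 701 (lowest, median, highest) in controls. The 3 groups did not overlap, with the VIPKO libraries between the other two. VIPKO normoxia exceeded WT hypoxia by 1.10 ± 0.25 (adjusted p = 0.012), and by 1.41 after the length and GC correction (adjusted p = 0.0057). With the mitochondrial covariate the difference was 0.59 and not called (adjusted p = 0.372). Against the controls they share, VIPKO normoxia differed by -1.17 ± 0.24 and WT hypoxia by -2.27 ± 0.23. The gene was included because earlier results of these data showed it against WT normoxia.

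BMP and TGF-beta signalling gave 6 of 29 genes lower and none higher (20.7%), with a median of -0.11. Over all genes 11.8% were called and 6.47% were lower. The 6 called were ligands, a receptor, a decoy and targets: Bmp2 (-0.65 ± 0.18, adjusted p = 0.0267), Tgfb3, Tgfbr2, Bambi, Id1 (-0.68 ± 0.20, adjusted p = 0.0366) and Id3 (-0.51 ± 0.14, adjusted p = 0.0282). Bambi, a pseudoreceptor that blunts BMP and TGF-beta signals, read 283, 226, 234 and 269 in VIPKO normoxia and 468, 545, 318, 311 and 407 in WT hypoxia. No VIPKO library reached the lowest hypoxic one. Its difference was -0.67 ± 0.15 (adjusted p = 0.0122). Bambi lost its call without VIPKO normoxia 3 (adjusted p = 0.0503), Bmp2 without WT hypoxia 2 or 5 or VIPKO normoxia 2 or 3 (0.0519 to 0.118), Id3 without WT hypoxia 3 or VIPKO normoxia 2 or 3 (0.0603 to 0.114), and Id1 without any library but WT hypoxia 1 or VIPKO normoxia 1 (0.0508 to 0.121). After the length and GC correction 2 of 29 were lower, and with the mitochondrial covariate 0 were called.

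Smad6, the inhibitory SMAD induced by BMP, read 2511, 2223, 2357 and 2396 in VIPKO normoxia and 1688, 2105, 2418, 2468 and 2780.2 in WT hypoxia, with controls of 4209, 4698 and 5230.4. The VIPKO values fell within the hypoxic range, and all 9 lay below the lowest control. The difference was 0.07 ± 0.15 (95% interval -0.25 to 0.39, adjusted p = 0.797), which bounds a difference without showing that there is none. The estimate was 0.39 after the length and GC correction (adjusted p = 0.179) and -0.13 with the mitochondrial covariate (adjusted p = 0.787). Against the shared controls, VIPKO normoxia differed by -0.996 ± 0.15 (adjusted p = 0.00194) and WT hypoxia by -1.06 ± 0.14 (adjusted p = 0.000649).

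Bmp6, an endothelial BMP ligand, read 2878, 2323, 2820.4 and 2388 in VIPKO normoxia and 1759.7, 2416, 2359, 2733 and 2604 in WT hypoxia, all below the lowest control of 3168. The groups overlapped, and the interval of the difference was -0.14 to 0.42 (adjusted p = 0.501), with an estimate of 0.43 after the length and GC correction (adjusted p = 0.0694). Eng, the co-receptor endoglin, read 7104, 6444, 7741 and 7202 against 4257, 5797, 6764, 6200.2 and 7581, again all below the lowest control of 10121. Its interval was -0.05 to 0.53 (adjusted p = 0.255), and the estimate became 0.52 after the length and GC correction (adjusted p = 0.0628). Smad7 had an interval of -0.47 to 0.12 and Bmpr2, the main heritable gene of pulmonary arterial hypertension, a difference of 0.28 (adjusted p = 0.21). Of the 14 heritable genes, 1 was called, Aqp1 (7.14%, beside 11.8% of all genes). Outside the lists, the narrowest intervals among uncalled genes with both means below the control range belonged to the histone demethylase genes Kdm2a (-0.17 to 0.07), Phf8 (-0.20 to 0.08) and Kdm3b (-0.24 to 0.04) and the RNA-handling genes Helz (-0.08 to 0.19), Dcp1a (-0.26 to 0.01) and Celf1 (-0.21 to 0.07).

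**Figure D5:**
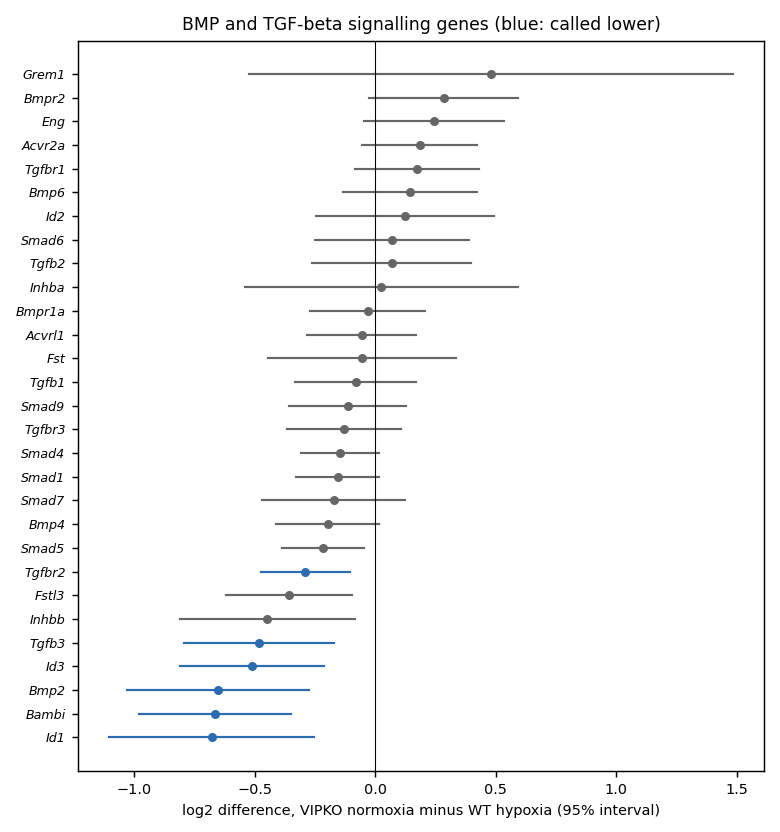
Log2 difference (VIPKO normoxia minus WT hypoxia) of 29 genes of BMP and TGF-beta signalling, with 95% intervals, blue where called lower and grey where not called. The 6 called genes all lie below 0, and the interval of Smad6 runs from -0.25 to 0.39.

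Of 15 vasoconstrictor genes 3 were higher in VIPKO normoxia and none lower (20%, median 0.20), and of 15 vasodilator genes 1 was higher and 2 lower (20%, median 0.19). Over all genes 11.8% were called. The summed vasodilator signal was 44878 to 52338 in VIPKO normoxia and 30011 to 41975 in WT hypoxia, without overlap (log2 difference 0.32, exact permutation p = 0.00794, adjusted p = 0.0972). Most of that gap came from Calcrl, a gene also on the capillary list. Its means were 20068 in VIPKO normoxia and 13175 in WT hypoxia, beside 47925 and 38669 for the whole sum. The vasoconstrictor sum differed by -0.03 (exact permutation p = 0.675, adjusted p = 0.848). The difference between the lists was not tested. Rock1, a kinase that sustains smooth muscle contraction, read 3840.5, 4728, 4251 and 4848 in VIPKO normoxia and 3117, 3558, 3385, 2783 and 3302 in WT hypoxia. The controls ran from 3083 to 4050, so 3 of the 4 VIPKO libraries exceeded the highest control and 4 of the 5 hypoxic ones lay inside the range. The difference was 0.45 ± 0.09 (adjusted p = 0.00784), and 0.17 after the length and GC correction (adjusted p = 0.318). Rock2 (0.43 ± 0.13, adjusted p = 0.0334) and the endothelin receptor Ednrb (0.57 ± 0.16, adjusted p = 0.0278) were also higher. Ednrb is counted on the capillary endothelial list too, so its call is not particular to constriction. Edn1, endothelin itself, differed by 0.03. Of the vasodilator genes, Calcrl, the receptor for adrenomedullin and CGRP, was higher (0.61 ± 0.18, adjusted p = 0.0342), while Nos3, the endothelial nitric oxide synthase (-0.52 ± 0.14, adjusted p = 0.0266), and the natriuretic peptide receptor Npr2 (-0.23 ± 0.07, adjusted p = 0.0466) were lower. Rock1 alone kept its call without any 1 library. Ednrb lost it without WT hypoxia 1 or VIPKO normoxia 3 or 4 (adjusted p 0.0633 to 0.0823), Nos3 without WT hypoxia 4 or 5 or VIPKO normoxia 2 or 3 (0.0507 to 0.103), and Rock2, Calcrl and Npr2 in 7 of the 9 cases each (0.0501 to 0.170). After the length and GC correction 0 genes of either list were called.

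Of 15 potassium and calcium channel genes, 3 were lower and none higher (20%, beside 11.8% of all genes), with a median of -0.35. Trpv4, a mechanosensitive calcium channel, read 198, 203, 175 and 242 in VIPKO normoxia and 333, 349, 284, 338 and 356 in WT hypoxia. All hypoxic libraries were above the highest control of 266, and 3 of the 4 VIPKO libraries were below the lowest control of 224. Its difference was -0.70 ± 0.11 (adjusted p = 0.00282). Stim1 and Orai1, sensor and pore of store-operated calcium entry, had -0.35 ± 0.09 (adjusted p = 0.0221) and -0.43 ± 0.12 (adjusted p = 0.0267). Kcnk3, the TASK-1 potassium channel, was not called (-0.75, adjusted p = 0.096). Stim1 lost its call without WT hypoxia 5 or VIPKO normoxia 2 or 3 (adjusted p 0.052 to 0.0723), Orai1 without WT hypoxia 2 or VIPKO normoxia 2 or 3 (0.0535 to 0.122), and after the length and GC correction 0 of 15 were called. With the mitochondrial covariate 1 of 15 was called, Trpv4 (-0.74, adjusted p = 0.0474).

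Aqp1, a water channel of endothelium, read 11876, 10989, 9538 and 13361 in VIPKO normoxia and 16896, 19698, 18847, 16913 and 18538 in WT hypoxia. The groups were separated by a gap, from 13361 to 16896. The difference was -0.68 ± 0.12 (adjusted p = 0.00413). It was called without any 1 library, after the length and GC correction (-0.49, adjusted p = 0.0371) and with the mitochondrial covariate (-0.90, adjusted p = 0.0356).

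Cell cycle genes were higher in VIPKO normoxia in 10 of 23 members, none was lower (43.5% called), and all 23 estimates were positive, with a median of 0.99. The called members were Mki67, Top2a, Ccnb1, Ccna2, Cdk1, Bub1, Birc5, Cenpf, Kif11 and Tpx2. Of the 13 not called, Plk1, a mitotic kinase, had the largest estimate (1.15) and Pcna, the replication clamp, the smallest (0.03). Mki67, the proliferation marker, read 978, 1346, 714 and 1047 in VIPKO normoxia and 275, 262, 396, 431 and 557 in WT hypoxia. The controls had 525, 661 and 736, between the 2 groups except that VIPKO normoxia 3 and WT hypoxia 5 fell inside their range. The difference was 1.43 ± 0.26 (adjusted p = 0.0048). Against the shared controls, VIPKO normoxia differed by 0.61 ± 0.25 (adjusted p = 0.137) and WT hypoxia by -0.82 ± 0.24 (adjusted p = 0.0275).

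Cenpf, a kinetochore protein, read 289.9, 296, 157 and 348 against 56.2, 42.3, 113, 31.1 and 146. VIPKO normoxia 3 and WT hypoxia 5 came closest, and the groups did not overlap. Its difference was 1.97 ± 0.39 (adjusted p = 0.00653). The spindle genes Ckap2 (1.95 ± 0.35, adjusted p = 0.00443) and Hmmr (1.79 ± 0.33, adjusted p = 0.00516), outside the list, were among the 12 largest positive differences of called genes whose groups did not overlap and whose higher mean reached 50. The summed list signal was 3607 to 5991 in VIPKO normoxia and 2430 to 3343 in WT hypoxia (exact permutation p = 0.00794, adjusted p = 0.0972). The list median was 0.96 after the length and GC correction, where 5 of 23 were higher, and 0.82 with the mitochondrial covariate, where 0 were.

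Some B cell and natural killer cell genes were higher in VIPKO normoxia than in WT hypoxia, and no T cell gene was called. All 12 B cell genes had positive estimates and 4 were called (33.3%, median 0.75). All 10 natural killer and cytotoxic genes were positive and 4 were called (40%, median 0.99). The B cell surface gene Ms4a1 (CD20) read 447, 321, 539 and 428 in VIPKO normoxia and 190.0, 189.5, 286, 257 and 236 in WT hypoxia, with controls of 285, 399 and 689. The VIPKO libraries lay inside the control range, and 4 of the 5 hypoxic ones lay below it. Its difference was 0.90 ± 0.23 (adjusted p = 0.0184). Cr2, a complement receptor of B cells, had 0.92 ± 0.25 (adjusted p = 0.0237). Without VIPKO normoxia 3 both lost their calls (adjusted p = 0.0775 and 0.0984), as did Cr2 without WT hypoxia 5 (0.0513). The other called B cell genes, Blk (adjusted p = 0.0428) and Cd79a (0.0443), were weaker. They kept their calls in 2 and 1 of the 9 fits with 1 library left out (up to 0.163 and 0.150).

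Klre1, a natural killer cell receptor, read 15.1, 33.2, 53.4 and 24.4 in VIPKO normoxia and 5.54, 10.2, 4.15, 11.7 and 8 in WT hypoxia. The signal was low in every library and highest in VIPKO normoxia 3. WT hypoxia 3 and 4 stood at just 3 reads. The groups did not overlap, but 1 read in WT hypoxia 4 is a signal of 3.89, more than its gap to VIPKO normoxia 1. A single read more there would make the groups overlap. The difference was 1.81 ± 0.39 (adjusted p = 0.0096), lost without VIPKO normoxia 3 (adjusted p = 0.0511). The chemokine Ccl5 had 1.08 ± 0.26 (adjusted p = 0.0161) and Klra8 2.34 ± 0.60 (adjusted p = 0.0203), with adjusted p of 0.072 and 0.0828 without VIPKO normoxia 3. The remaining called gene, Nkg7 (0.86 ± 0.28, adjusted p = 0.0499), kept its call in 0 of the 9 fits with 1 library left out (0.0641 to 0.134). The summed B cell signal ran from 3994 to 6386 in VIPKO normoxia, from 2417 to 4121 in WT hypoxia and from 3495 to 8973 in WT normoxia. For natural killer genes the ranges were 727 to 1102, 369 to 614 and 613 to 1194. All 11 T cell genes were positive (median 0.54), but 0 were called by limma and 0 had an unadjusted p under 0.05. The summed T cell signal ran from 1632.5 to 2077 in VIPKO normoxia and from 979.8 to 1671 in WT hypoxia. Its exact permutation p was 0.0317 (adjusted p = 0.141), the same as for the B cell sum. The limma spread is pooled over all 20 libraries, among them VIPKO hypoxia 3 with a T cell sum of 14354 and a thymus gene sum of 16112. A fit on the 2 groups alone leaves that library out. In it no named gene gained a call, the T cell genes Foxp3 and Ccr7 among them. The part of that library was not otherwise tested. With the Xist class of the libraries as a covariate 8 B cell and 8 natural killer genes were called, after the length and GC correction 2 and 1, and with the mitochondrial covariate 0 and 0.

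Among other immune genes, the mast cell receptor chain Ms4a2 was higher at a low level: 10.6, 17.7, 23.5 and 17.5 against 4.75, 0, 4.15, 0 and 3.43, a difference of 2.74 ± 0.58 (adjusted p = 0.00884). Each VIPKO library was above each hypoxic one, 2 of which were at 0. It was the only member called of the 4 mast cell and eosinophil genes tested (9 listed), and the other 3 had negative estimates, for a list median of -0.16. Sdc1 (syndecan-1), on the plasma cell list but also made by lung epithelium, was lower (-0.73 ± 0.17, adjusted p = 0.0122, and 0.0608 without VIPKO normoxia 3). No neutrophil, monocyte, MHC class II or interferon-stimulated gene was called by limma, with 0, 0, 1 and 0 at an unadjusted p under 0.05. Of 13 alveolar macrophage genes 1 was called, Fabp1 (2.42 ± 0.72, adjusted p = 0.0356), a lipid carrier, at means of 30.7 and 6.03. It lost its call in 6 of the 9 fits with 1 library left out, with adjusted p up to 0.0884.

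Type 2 alveolar genes, which make surfactant, were lower in VIPKO normoxia in 4 of 12 members (33.3%), with none higher and a median of -0.42. Lpcat1, which remodels surfactant phosphatidylcholine, read 6696, 7419, 6099 and 7699.5 in VIPKO normoxia and 12650.0, 11651, 12844, 9827 and 9892 in WT hypoxia. The controls ran from 6728 to 8503, and the hypoxic libraries were all above them. The difference was -0.70 ± 0.12 (adjusted p = 0.00441). The lipid transporter Abca3 (-0.46 ± 0.10, adjusted p = 0.00988), the surfactant protein gene Sftpb (-0.65 ± 0.17, adjusted p = 0.0212) and the phosphate transporter Slc34a2 (-0.61 ± 0.16, adjusted p = 0.0227) were also lower. Sftpc, the most specific marker, was not called (-0.53, adjusted p = 0.16). Sftpb lost its call without VIPKO normoxia 3 (adjusted p = 0.0877), and Slc34a2 without WT hypoxia 3 or VIPKO normoxia 2 or 3 (0.0518 to 0.086). Lpcat1 alone passed after the length and GC correction, and 0 passed with the mitochondrial covariate.

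Of 12 motile cilia genes 1 was called, Foxj1, the regulator of ciliogenesis. It read 1327, 1633, 1474 and 1854 in VIPKO normoxia and 4139, 1993, 3142, 2620.0 and 2219 in WT hypoxia, without overlap and highest in WT hypoxia 1, a difference of -0.81 ± 0.20 (adjusted p = 0.016). Without VIPKO normoxia 3 its adjusted p was 0.0588. No airway secretory gene was called. Scgb3a1, a secretoglobin, read 304, 1455, 2093 and 2259 in VIPKO normoxia and 1707, 1920.4, 3002, 4424 and 1550.0 in WT hypoxia, where the controls had 0, 12.7 and 544. The groups overlapped, 8 of the 9 libraries lay above the highest control, and the interval of the difference was wide, -3.42 to 1.52. Against the shared controls the differences were 5.93 ± 1.14 for VIPKO normoxia (adjusted p = 0.00591) and 6.88 ± 1.07 for WT hypoxia (adjusted p = 0.00156).

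Among called genes whose groups did not overlap and whose higher mean reached 50, the 12 largest positive differences took in 3 that were mitochondrial (mt-Atp8, mt-Rnr2, mt-Rnr1) and 2 that were small nucleolar RNAs (Snord15b, Snora74a). The mitochondrial large ribosomal RNA mt-Rnr2 read 11559, 9602, 22744 and 15338 in VIPKO normoxia and 645, 585, 1177, 303 and 5262 in WT hypoxia. Every VIPKO library exceeded every hypoxic one, of which library 5 was the highest. The difference was 3.91 ± 0.79 (adjusted p = 0.00703). mt-Atp8, a subunit of ATP synthase whose gene overlaps mt-Atp6, read 2000.0, 7176, 8133 and 10660.0 against 415, 365, 376, 109 and 1482, a difference of 3.92 ± 0.64 (adjusted p = 0.00363). Reads of the overlap can be assigned to either gene. All 13 mitochondrial protein genes had positive estimates, with a median of 0.48 and 2 called, but the median was -0.18 after the length and GC correction and -0.03 with the covariate.

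Snord15b, a small nucleolar RNA annotated inside the Rps3 locus, read 167, 38.7, 189 and 46 in VIPKO normoxia and at most 0.755 in WT hypoxia. All 5 hypoxic libraries were under the limit of 3 reads, which was 2.37 to 11.7 in signal. With each hypoxic library set to its limit, their mean was 5.34, and the VIPKO mean of 110.2 was 20.6-fold that. This is a ratio of group means, and single VIPKO libraries lay nearer the limits. It covers counting error only and not how reads were shared out between genes. The limma difference was 6.29 ± 0.97 (adjusted p = 0.00282). Reads of Rps3 can be counted here, since no source used here gives the counting strand. Snora74a and Eif4ebp3 were also among the largest, at 3.73 ± 0.95 and 3.41 ± 0.88, with adjusted p of 0.0189 and 0.0202, and 0.0766 and 0.069 without VIPKO normoxia 3.

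Ribosomal protein genes and their pseudogenes went both ways, which is uncertain where near-identical copies share reads. Rpl37 read 205, 201, 218 and 149 in VIPKO normoxia and 97.4, 71.2, 88.7, 58.5 and 64.6 in WT hypoxia, a difference of 1.34 ± 0.23 (adjusted p = 0.00378). Rps23 read 529, 292, 362 and 171 against 982, 943, 1070.5, 764 and 1038, a difference of -1.60 ± 0.33 (adjusted p = 0.00784). Within each gene the groups did not overlap. Rpl38 was also higher (1.69 ± 0.34, adjusted p = 0.0073). Rps2-ps6 and Rps2-ps8 had the largest negative differences, -5.42 ± 1.31 and -4.71 ± 0.91. The call of Rps2-ps6 was lost without VIPKO normoxia 2 or 3 (adjusted p 0.0541 and 0.0705). Of 21 nuclear genes of oxidative phosphorylation 2 were higher and 2 lower. After the length and GC correction 0 were higher and 1 lower, and with the mitochondrial covariate 0 were higher and 7 lower.

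Other large negative differences were in Wdr89 (-2.64 ± 0.74, adjusted p = 0.0285), Sco2, a copper chaperone of cytochrome oxidase that overlaps Ncaph2 and Tymp (-2.12 ± 0.51, adjusted p = 0.0148), Pde2a, a phosphodiesterase that degrades cyclic AMP and cyclic GMP (-1.81 ± 0.36, adjusted p = 0.00653), Ptprr (-1.42 ± 0.37, adjusted p = 0.0209) and Igfals, which binds circulating insulin-like growth factor complexes (-1.40 ± 0.28, adjusted p = 0.00722). Igfals passed without any 1 library, after the length and GC correction and with the mitochondrial covariate. Pde2a had means of 71.3 in VIPKO normoxia and 239 in WT hypoxia, and passed without any 1 library. Wdr89 lost its call without WT hypoxia 3 or VIPKO normoxia 2 or 3 (adjusted p 0.0575 to 0.116), and Sco2 and Ptprr without VIPKO normoxia 2 or 3 (0.0595 to 0.085).

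Of the stress lists, all 10 glucocorticoid-responsive genes had negative estimates (median -0.43) and 2 were called: Errfi1, a feedback inhibitor of the EGF receptor (-1.03 ± 0.31, adjusted p = 0.0359), and Cdkn1a, the cell cycle inhibitor p21 (-0.63 ± 0.19, adjusted p = 0.0418). The immediate early genes Jund (-0.61 ± 0.16, adjusted p = 0.0221) and Dusp1 (-1.12 ± 0.35, adjusted p = 0.0439) were lower. No circadian clock gene was called, with 1 of 16 at an unadjusted p under 0.05. Jund lost its call without VIPKO normoxia 2 or 3 (adjusted p 0.0568 and 0.0818), and Errfi1, Cdkn1a and Dusp1 in 6 to 8 of the 9 fits (0.0504 to 0.124).

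Structural genes gave few calls. Of 20 collagen and matrix genes limma called 0, with 5 at an unadjusted p under 0.05 and a median of 0.29. Of 15 smooth muscle genes 1 was called, the actin-binding Cald1 (0.46 ± 0.14, adjusted p = 0.0375, lost in 7 of the 9 fits with 1 library left out, up to 0.102), and Acta2, smooth muscle actin, was not (0.47, adjusted p = 0.62). Adipocyte genes all had negative estimates (median -1.85), and 0 of 11 were called, with 7 at an unadjusted p under 0.05. Cfd, the adipocyte protease adipsin, read 166, 184, 1067 and 383 in VIPKO normoxia and 1605, 277, 635, 2157 and 5589 in WT hypoxia. The groups overlapped and WT hypoxia 5 was the highest, with a difference of -1.93 ± 0.89 (adjusted p = 0.152). The adipocyte sum ran from 974 to 3014 in VIPKO normoxia and from 1279 to 28459 in WT hypoxia.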

How the data were processed

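RNA was sequenced from whole lung; 9 of 20 libraries were compared. Per the labels' protocols, extraction used the RNeasy Mini Plus kit, and 1 µg of total RNA went into strand-marking NEBNext Ultra II libraries. Partek and mm10 are named in the submitters' processing notes; no source used here gives the aligner, counting strand, normalization method or Partek version. The deposited table holds the authors' normalized gene counts for 30691 named lines, used here as a signal (unit: normalized signal per gene). In each library low values lay near multiples of 1 step, taken as 1 read (82.0% to 88.3% within 0.05 reads in the 9 libraries), which gave the estimated depth; values were not treated as whole reads, and no count model was fitted. Intervals and limits from reads cover counting error only.

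The scale was log2(signal + 1). Differences of low genes are understated by this pseudocount. Genes with at least 10 in at least 4 of 20 libraries were tested (21658) with limma 3.58.1 (R 4.3.3): 4 group means, variance trend, contrast of VIPKO normoxia minus WT hypoxia, Benjamini-Hochberg adjusted p under 0.05. List sums were compared by exact permutation tests. Loci, length and GC came from GENCODE vM21 of GRCm38 (96.0% of names with 1 locus; 96.9% of tested genes with length and GC). Promoters came from RefSeq. The members and lists were chosen with earlier results of these data known. Named genes were Vip, the 12 largest differences in each direction among called genes with separate groups and a higher group averaging 50 or more, up to 4 called genes per list (2 as values where none was called), genes known from earlier results, and 6 genes with narrow intervals. Sex-linked genes, antigen receptor segments and unnamed gene models were passed over in ranking. Where the text names other list members, they were chosen after their values were seen. The reported results use all libraries. The steps were tested on simulated data. Figures were drawn with matplotlib 3.10.9, and tables made with pandas 2.3.3 and numpy 2.4.6 in Python 3.11.15.

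Alternatives were the pseudocount, filter, rescaling, quantile normalization, variance trend, library weights, a fit on the 2 groups alone, a replicate block, single libraries or VIPKO normoxia 2 and 3 left out, a correction for transcript length and GC content, and mitochondrial ribosomal RNA as a covariate. A covariate for the Xist class was chosen after seeing the data.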

Additional observations from a re-analysis of the deposited data

Results flagged for a closer look

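In 160 sets of 4 or 5 library values (list sums and gene signals of either group), 14 held 1 library whose gap to its nearest neighbour was over the 95% limit of Dixon's test; chance alone flags about 1 in 20.

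WT hypoxia 5 stood high in the summed signal of skeletal muscle genes (38820), basal and squamous epithelial genes (90059), glycolysis genes (59716) and nuclear oxidative phosphorylation genes (55698), in Aldoa (18654) and in Snord15b (0.755, below the limit of 3 reads). WT hypoxia 1 stood low in the sums of BMP and TGF-beta signalling genes (70798), vasodilator genes (30011) and vasoconstrictor genes (36574). WT hypoxia 4, the shallowest library, stood low in the sums of ribosomal protein genes (54028) and circadian clock genes (21914).

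Among the VIPKO normoxia libraries, library 3 stood apart in the sum of VIP and PACAP ligand and receptor genes (807), library 2 in the neutrophil sum (10881) and library 4 in Hpgd (5814).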

How the results depend on the processing

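Of the 2552 calls (1150 higher, 1402 lower; 82 on the gene lists), library weights gave 4569 (2127 higher, 2442 lower; 137 on the lists), the length and GC correction 568 (230 and 338; 34), the mitochondrial ribosomal RNA covariate 278 (63 and 215; 15), and leaving out VIPKO normoxia 2 and 3 gave 0 (0 and 0; 0), with 3121 at an unadjusted p under 0.05. With the replicate block there were 1652 (758 higher, 894 lower), of which 1587 were among the 2552; 59 list genes were called. The labels do not say that replicate numbers pair libraries, and same-numbered libraries of the 2 groups correlated at 0.112, 0.066, -0.147 and -0.165 in their deviations, so they share only a number. Over the fits with 1 library left out, calls ranged from 565 to 2534 (252 to 1074 higher, 313 to 1465 lower; 29 to 93 on the lists), and the count moved by over 1.5 times without VIPKO normoxia 2 (867) or 3 (565) or WT hypoxia 3 (1524). Without WT hypoxia 5, 904 were lower. The other alternatives (pseudocount, filter, rescaling, quantile normalization, variance trend, 2 groups alone, Xist class) gave 1966 to 2635 calls. Of 91 called named genes, 33 kept their call without any 1 library and 58 lost it without at least 1, most often without VIPKO normoxia 3 (55) and 2 (42). Of the called genes, 2389 of 2471 kept their sign after the length and GC correction and 2547 of 2552 with the covariate. Among the named called genes, signs turned for mt-Rnr2, itself part of the covariate (-0.39), for mt-Nd6 (-0.18 after the length and GC correction, -0.038 with the covariate) and for Npr2 (0.00059 after that correction); beyond these the cause of the lost calls was not tested. The depth of 4.96 M reads in WT hypoxia 4 limits what can be seen of genes near 3 reads, which there is a signal of 11.7.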
